A study of Mus musculus with 6 samples.

Results

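The fragments described here come from the nuclear-encoded transfer RNA for histidine with the anticodon GTG (tRNA-His-GTG). They are the sequences in a count table of tRNA-derived small RNAs (tsRNAs) whose every annotation begins with the mature form of that tRNA (mature-tRNA-His-GTG). There were 1027 such sequences of 38798 in the table, with 363051 counts over 6 libraries, and none was also annotated to another tRNA family. The small RNAs came from wild-type primary smooth muscle cells of the mouse pulmonary artery, kept at 3% oxygen for 24 h (hypoxia, n = 3) or under normal oxygen (normoxia, n = 3). Pandora-seq was used for the libraries: RNA modifications that would stop the adapters from joining or the reverse transcriptase from reading are first taken off by enzymes. The labels do not say whether the 3 samples of a group came from separate cultures or animals, so p-values measure only the spread between these samples. The table holds tRNA fragments only, so the smooth muscle label could not be set against marker genes. In such bulk samples, fewer cells of a type and less RNA per cell cannot be told apart.

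tRNA-His carries histidine to the ribosome. It differs from other tRNAs in a guanosine that the enzyme Thg1l adds after transcription in front of the first encoded base, which histidyl-tRNA synthetase recognises. As in other tRNAs, a CCA tail is added to the 3' end. Its anticodon can hold queuosine at the wobble base, a modified guanosine that it shares with tRNA-Asn, tRNA-Asp and tRNA-Tyr. Under stress, the ribonuclease angiogenin is known to cut tRNAs, mainly in the anticodon loop.

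RefSeq (GRCm38.p6) lists 10 mouse genes for this tRNA, each 72 nt long. The gene sequences were not at hand, so fragments were not assigned to single copies. Chromosome 2 holds 3 of the genes, among them n-THgtg4 at chr2:122375494-122375565. Chromosome 3 holds 6, from n-THgtg6 at chr3:96410069-96410140 to n-THgtg8 at chr3:96500366-96500437. The last, n-THgtg10, lies at chr4:82619623-82619694. Overlapping the deposited fragments gave the encoded sequence below, in which position 1 is the first encoded base and capitals mark the anticodon at positions 34 to 36. All 21 base pairs of the cloverleaf stems could form in it. The fragments shown under it are the most abundant ones and those with the smallest unadjusted p in either direction, named by their first and last position.

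tRNA-His-GTG, encoded part: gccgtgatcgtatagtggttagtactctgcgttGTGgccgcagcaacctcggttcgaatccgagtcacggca
His 1-31: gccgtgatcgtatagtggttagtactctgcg
His 21-41: agtactctgcgttGTGgccgc
His 3-31: cgtgatcgtatagtggttagtactctgcg
His 19-33: ttagtactctgcgtt
His 17-41: ggttagtactctgcgttGTGgccgc
His 1-18: gccgtgatcgtatagtgg
His 20-53: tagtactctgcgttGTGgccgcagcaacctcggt
His 21-55: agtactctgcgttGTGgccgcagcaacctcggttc
His 26-40: tctgcgttGTGgccg
His 13-36: tagtggttagtactctgcgttGTG
His 2-19: ccgtgatcgtatagtggt
His 11-30: tatagtggttagtactctgc

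The 6 libraries held 510519, 2563749 and 1713960 tsRNA counts in hypoxia, and 330787, 2217965 and 1629726 in normoxia. The libraries numbered 1 were the shallowest and stood apart in both groups, for example in mitochondrial tRNA-His, at 12918 CPM (tsRNA counts scaled to a total of 1000000) in hypoxia 1 and 13737 CPM in normoxia 1, against 2853 to 5303 CPM in the others. As a share of all counts, nuclear tRNA-His did not show that split, while its scaled level and its make-up by fragment did, as given below. It took 4.02%, 4.50% and 3.81% of counts in hypoxia, and 3.83%, 3.81% and 3.98% in normoxia. The groups overlapped, at 41071 ± 3558 CPM in hypoxia and 38720 ± 909 CPM in normoxia (SD, n = 3 each; two-sided exact permutation p = 0.4, with 0.1 the smallest that 3 against 3 allows). The coefficient of variation of its CPM over the 6 libraries was 6.66%, the second smallest of 73 families, whose median was 47.9%.

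The family sum was also tested with edgeR's quasi-likelihood test after TMM scaling, which puts both libraries numbered 1 on a lower level (16807 scaled CPM in hypoxia 1 and 16867 in normoxia 1, against 31940 to 37122 in the others). The fitted log2 change of hypoxia over normoxia was 0.07 (SE 0.46, adjusted p = 0.996). With the replicate number as a block it was 0.05 (SE 0.13, adjusted p = 0.904), and without both libraries numbered 1 it was 0.07. In the fit without the block 0 of 73 families passed an adjusted p of 0.05 (0%); before adjustment, 0 were higher and 2 lower (2.74%). By DESeq2, 2 families passed (2.74%), and tRNA-His was not among them.

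The table sorts fragments into classes by the end of the tRNA that they hold, and its 5' end class was empty for tRNA-His. Of 51 mature nuclear families, 49 had at least 1 sequence in that class; tRNA-Sup-TCA was the only other without. In the 45 other families with at least 10000 counts, the 5' end class took 0.369% to 98.5% of a family's counts, with a median of 46.8%. Nearly all tRNA-His counts were in the internal class, with 997 sequences and 362638 counts. The 3' end class, which ends at the last encoded base, had 27 sequences and 394 counts. The CCA end class had 3 sequences and 19 counts, or 0.00523% of tRNA-His counts, against a median of 3.80% in those 45 families. By library, internal fragments took 99.7 ± 0.491% of tRNA-His counts in hypoxia and 99.7 ± 0.355% in normoxia (SD, n = 3 each; exact permutation p = 0.9).

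Many fragments filed as internal nonetheless began at position 1. There were 31 such sequences with 63077 counts. No tRNA-His fragment held a base in front of position 1, such as the added guanosine, so fragments that begin with it had 0 counts. This 0 did not come from a separate search. Position 1 is the leftmost base that the overlaps reached, so a fragment with a further base would have moved it. If position 1 is the first encoded base, 0 against those 63077 allows a share of up to 0.00476%, counting error only. By library the limits were 0.224%, 0.0169% and 0.0266% in hypoxia, and 0.276%, 0.0172% and 0.0210% in normoxia. No sequence of any annotation held a G, or any other base, in front of the first 10 encoded bases. For tRNA-His sequences this too follows from how position 1 was set. Nor did any hold the last 8 encoded bases followed by CCA. Whether reads with the added guanosine could match the authors' reference is not given in the sources used here, so the empty 5' end class and this 0 describe the table and not the cells.

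Of the 1027 sequences, 912 matched the encoded tRNA exactly and held 99.9% of the counts. Their first and last bases were clustered. Starts were most frequent at positions 1 to 3, along the D loop (14 to 21) and at position 21, and ends at position 31, in the loop at 33, and at 38, 39 and 41 in or beside the 3' strand of the anticodon stem. Ends at the wobble base itself, position 34, took 2.79 ± 2.28% of counts in hypoxia and 2.86 ± 0.586% in normoxia (SD, n = 3 each). Few fragments began in the anticodon loop: 1.64%, 0.604% and 0.811% of internal counts in hypoxia, and 1.58%, 0.717% and 0.717% in normoxia (exact permutation p = 1). Position 31 is the last base of the 5' strand of the anticodon stem, before the loop. Ends there averaged 20.5 ± 9.18% in hypoxia and 25.1 ± 8.78% in normoxia, and ends at position 41 averaged 21.6 ± 4.63% in hypoxia and 17.4 ± 1.21% in normoxia, so the order of these positions differed between libraries.

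**Figure D1:**
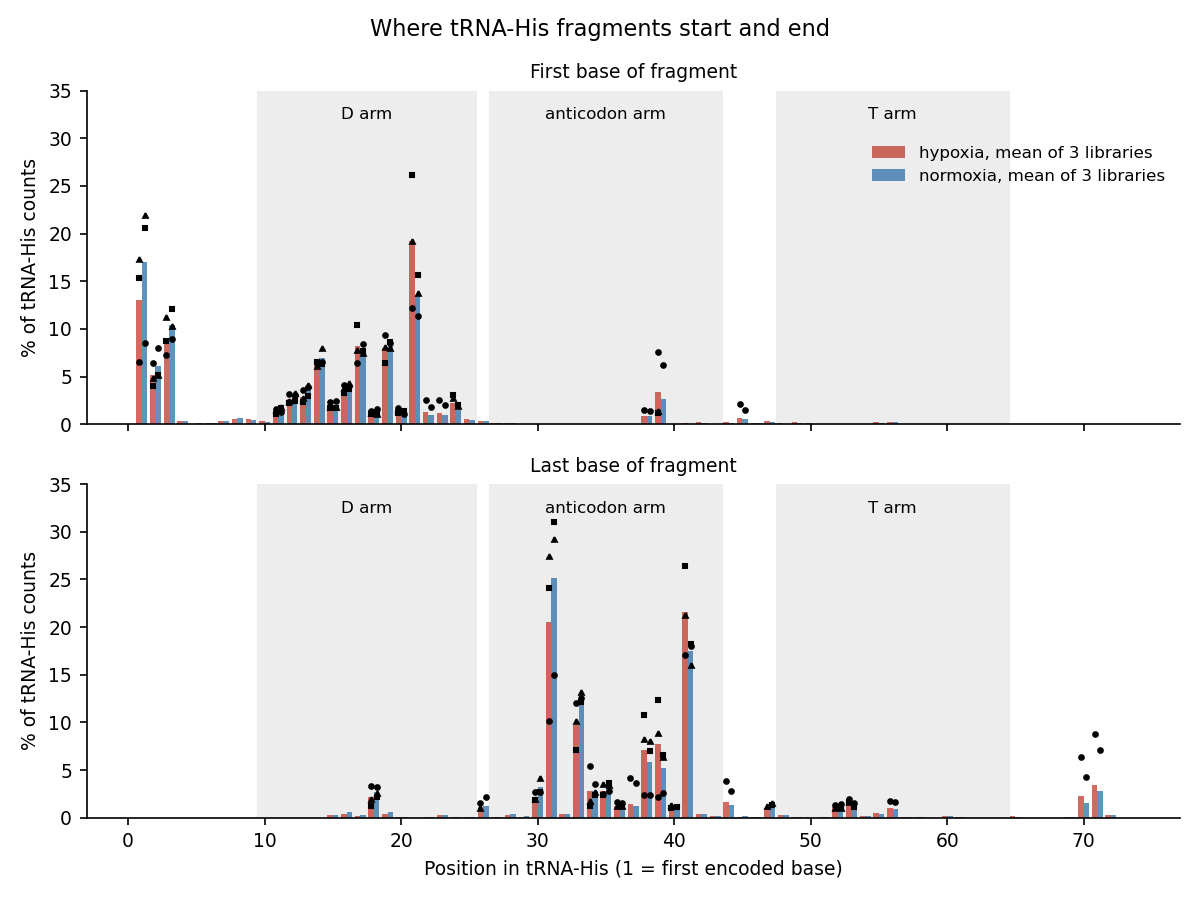
Share of tRNA-His counts (%, y axes) whose fragment begins (top) or ends (bottom) at each position of the tRNA (x axes); bars are means of 3 libraries, hypoxia in red left of normoxia in blue, and circles, squares and triangles are libraries 1, 2 and 3 where above 1%. Starts at position 21 averaged 19.2% in hypoxia and 13.6% in normoxia, and ends at position 31 averaged 20.5% in hypoxia and 25.1% in normoxia.

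The positions were grouped by structural element after they had been seen, so the shares that follow are descriptions with no test. Starts at position 1 took 6.53%, 15.3% and 17.3% of tRNA-His counts in hypoxia, and 8.57%, 20.6% and 22% in normoxia. The hypoxia library was lower in all 3 same-numbered pairs (a pairing by number only, which the labels do not give), while the groups overlapped. Starts at position 21, the last base of the D loop, took 12.1%, 26.2% and 19.3% in hypoxia, and 11.4%, 15.7% and 13.8% in normoxia. Here hypoxia was higher in 3 of 3 pairs, and the groups again overlapped. Ends at position 31 took 10.1%, 24.1% and 27.4% in hypoxia, and 15%, 31% and 29.3% in normoxia, lower in hypoxia in 3 of 3 pairs. Ends at position 41 took 17.1%, 26.4% and 21.3% in hypoxia, and 18.1%, 18.2% and 16.1% in normoxia, higher in hypoxia in 2 of 3 pairs. Ends at position 33 took 12.0%, 7.08% and 10.1% in hypoxia, and 12.6%, 12.2% and 13.2% in normoxia. There the groups did not overlap.

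The map of start zone by end zone holds 3 kinds of fragment that each averaged above 15% of placed counts in both groups. Those from the 5' strand of the acceptor stem to the 5' strand of the anticodon stem stop short of the anticodon, like His 1-31. They took 10.4%, 23.5% and 26.7% of placed counts in hypoxia, and 15%, 30.4% and 29.6% in normoxia. Those from the D loop to the 3' strand of the anticodon stem hold the whole anticodon, like His 21-41. They took 17.8%, 36.3% and 28.2% in hypoxia, and 20.2%, 23.6% and 21.1% in normoxia. Those from the D loop to the anticodon loop, like His 19-33, took 18.7%, 16.9% and 17.9% in hypoxia, and 17.4%, 19.1% and 20.3% in normoxia. In pair 1, hypoxia was lower for the first kind and the second and higher for the third. In pairs 2 and 3, hypoxia was lower for the first and the third and higher for the second.

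**Figure D2:**
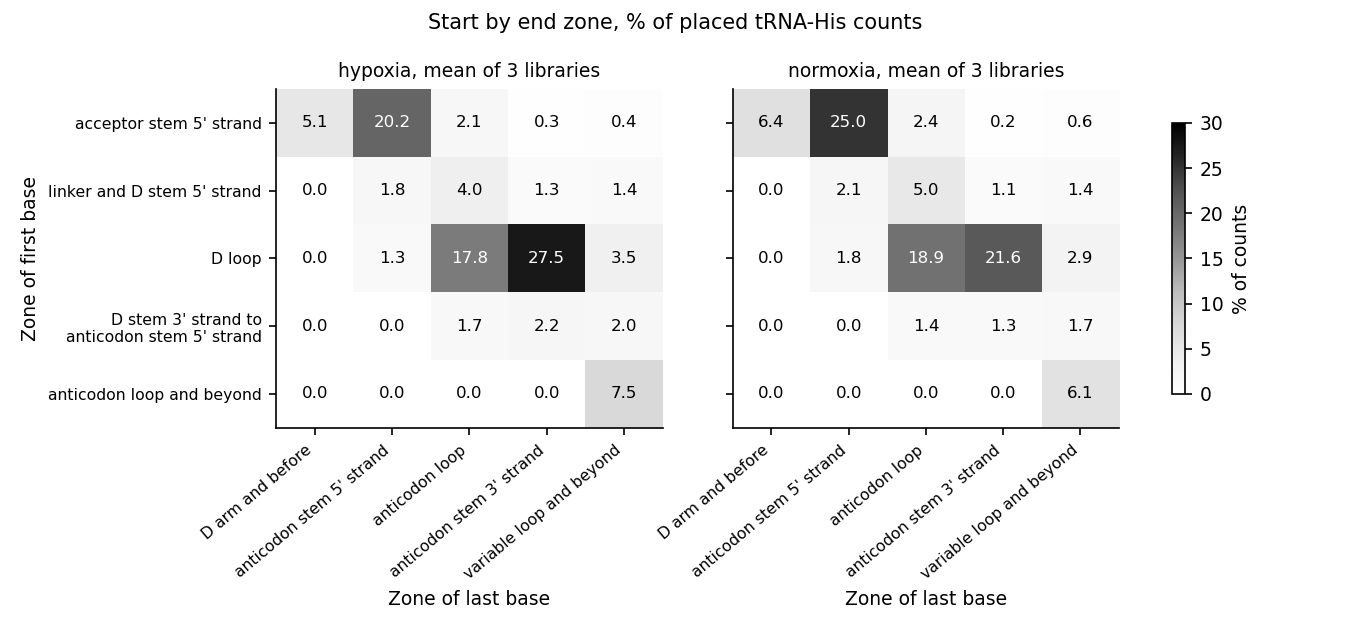
Mean share of placed tRNA-His counts (%, shading and printed values) for each zone of the first base (rows) and of the last base (columns), hypoxia left and normoxia right (n = 3 each). Fragments from the D loop to the 3' strand of the anticodon stem averaged 27.5% in hypoxia and 21.6% in normoxia.

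Over all placed fragments, those holding the whole anticodon took 41.7%, 57.0% and 46.6% of counts in hypoxia, and 40.2%, 39.7% and 38.1% in normoxia. The groups did not overlap, with means of 48.4 ± 7.84% in hypoxia and 39.3 ± 1.09% in normoxia (SD, n = 3 each), a difference of 9.10 percentage points. Hypoxia 2 carried much of it, since without that library the difference was 4.80 points. Without both libraries numbered 1 it was 12.9. All other shares by zone of the first base, by zone of the last base and by relation to the anticodon overlapped between the groups. Some finer shares did not overlap either, such as ends at position 33, given above. Fragments from the D loop to the 5' strand of the anticodon stem took 1.30% to 1.34% in hypoxia and 1.68% to 1.98% in normoxia. Those that started between the D loop and the anticodon loop and ended in that stem's 3' strand were higher in hypoxia. They took 1.99% to 2.49%, against 0.983% to 1.68% in normoxia. With that many shares and no test, such separations can arise by chance. Fragments that ended before the anticodon took 32.9%, 37.3% and 45.6% in hypoxia, and 39.2%, 52.4% and 53.9% in normoxia. They were lower in hypoxia in each pair, but hypoxia 3 lay above normoxia 1. Fragments cut inside the anticodon averaged 5.67 ± 2.17% in hypoxia and 6.24 ± 0.178% in normoxia. Fragments that began after it set the libraries numbered 1 apart, at 17.4% in hypoxia 1 and 14.2% in normoxia 1, against 1.73% to 2.50% in the others. When each distinct sequence with at least 10 counts in a library was counted once, the difference in fragments holding the anticodon was 2.58 points.

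**Figure D3:**
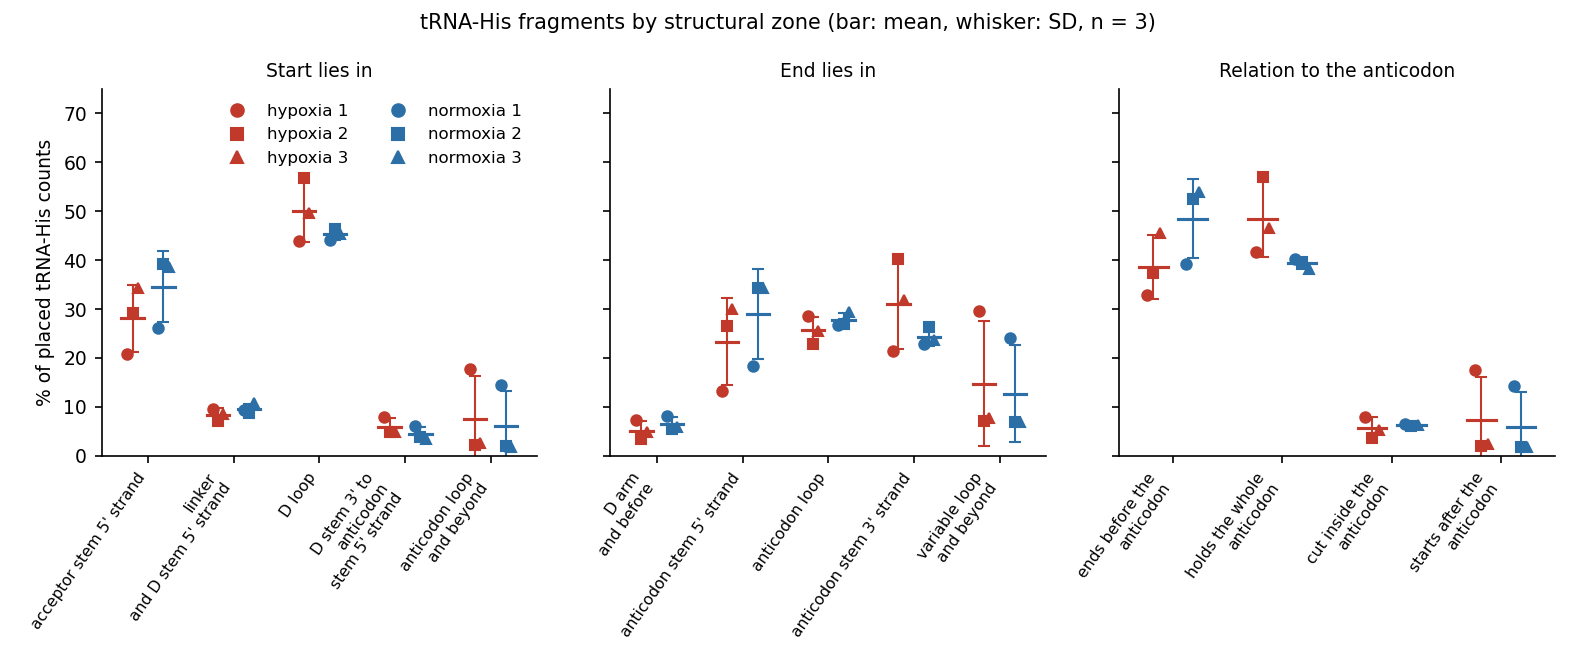
Share of placed tRNA-His counts (%, y axis) by zone of the first base, by zone of the last base and by relation to the anticodon (x axes), with hypoxia in red left of normoxia in blue. Points are libraries, bars means and whiskers SDs (n = 3 each); fragments that hold the whole anticodon took 41.7% to 57.0% in hypoxia and 38.1% to 40.2% in normoxia.

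Fragments starting at position 1 were mostly long. At least 30 nt were reached by 58.1%, 88.8% and 86.1% of their counts in hypoxia, and by 64.7%, 86.6% and 85.5% in normoxia (77.7 ± 17% and 79.0 ± 12.3%; exact permutation p = 0.9). The libraries numbered 1 were the low ones in both groups. Ends at position 31 alone accounted for 44.3%, 81.4% and 78.6% of counts starting at position 1 in hypoxia, and for 54.7%, 77.3% and 76.0% in normoxia. Among starts at positions 1 to 3, position 1 took 32.3%, 54.6% and 51.9% in hypoxia, and 33.6%, 54.5% and 58.7% in normoxia.

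The 3' side of the tRNA was scarce, and what there was mostly stopped short of the last base. Ends at position 71 took 8.80%, 0.769% and 0.856% of tRNA-His counts in hypoxia, and 7.16%, 0.646% and 0.559% in normoxia. The libraries numbered 1 were the high ones in both groups. The 3 most abundant members of the 3' end class, which reach position 72, ran from positions 38, 39 and 49. His 39-72 had 84.2, 5.07 and 5.25 CPM in hypoxia, and 57.4, 4.51 and 5.52 CPM in normoxia. His 38-72 had 41.1, 1.95 and 4.08 CPM in hypoxia, and 30.2, 0 and 1.23 CPM in normoxia. His 49-72 had 54.8, 0.390 and 2.33 CPM in hypoxia, and 15.1, 1.80 and 0 CPM in normoxia. None of these 3 passed the filter on low counts. Of fragments that ended at position 72 or in the full CCA, the CCA took 0%, 23.5% and 8.11% in hypoxia, and 0%, 9.62% and 13% in normoxia (exact permutation p = 0.9). These shares rest on 0, 8 and 3 CCA counts in hypoxia, and on 0, 5 and 3 in normoxia. All 19 carried a substitution, A67T (described below), which was found in only 1 count of the 3' end class. The shares thus compare ends of different tRNA sequences.

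The filter on low counts left 348 of the 1027 sequences, holding 97.5% of tRNA-His counts, among 6452 tsRNAs tested together. None of the 348 passed an adjusted p of 0.05 in edgeR's quasi-likelihood test, as did none of all 6452 (0%), and none had an unadjusted p under 0.05, where the background was 0.279% higher and 0.418% lower. By DESeq2 and by limma voom, none passed after adjustment. Unadjusted, each gave 2 higher (0.575%) and 3 lower (0.862%), against 0.527% and 0.775% of all tsRNAs by DESeq2 and 0.868% and 0.821% by limma voom. With the replicate block 0 of 348 passed, against 0.155% of all tsRNAs. At an unadjusted p under 0.05, the block gave 11 higher (3.16%, against 3.41% of all tsRNAs) and 5 lower (1.44%, against 2.98%). In CPM, the groups did not overlap for 19 of the 348 (5.46%, against 4.84% of all tsRNAs). Hypoxia was higher in 3 of 3 pairs for 60 (17.2%, against 15% of all) and lower in 3 of 3 for 47 (13.5%, against 13.4%). These shares were near the background. The median log2 change was 0.11 over the 348 and 0.02 over all tsRNAs.

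By the zone of the last base, the fitted log2 changes had different medians. The 29 tested sequences ending in the D arm or before had a median of -0.39, with 10 above 0. The 41 ending in the 5' strand of the anticodon stem had -0.28, with 12 above 0, and the 92 ending in its loop -0.21, with 34 above 0. The 61 ending in the 3' strand of that stem had a median of 0.37, with 52 above 0, and the 125 ending beyond it had a median of 0.32, with 87 above 0. Of all 348 tested tRNA-His sequences, 195 were above 0. Sequences of a zone overlap one another, so they are not independent.

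None of the most abundant fragments passed the test. His 1-31 had 1164, 5618 and 5171 CPM in hypoxia, and 1796, 6065 and 6650 CPM in normoxia. Its libraries numbered 1 were lowest in both groups, which overlapped, and its log2 change was -0.30 (SE 0.91, adjusted p = 0.9999 by edgeR). His 21-41, which holds the anticodon, had 3512, 6575 and 4184 CPM in hypoxia, and 3144, 3426 and 2932 CPM in normoxia. Each hypoxia library was above each normoxia library, with a log2 change of 0.61 (SE 0.58), or 0.53 (SE 0.25, adjusted p = 0.770 by edgeR) with the block. Without hypoxia 2 it was 0.17, and over all single libraries left out it ranged up to 0.94. His 3-31 had 1363, 2844 and 3037 CPM in hypoxia, and 1765, 3307 and 2707 CPM in normoxia. The groups overlapped there, as they did for the next 3.

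His 19-33, which stops in the loop just before the anticodon, had 1342, 1130 and 1441 CPM in hypoxia, and 1242, 1569 and 1605 CPM in normoxia. His 17-41 had 678, 2190 and 1207 CPM in hypoxia, and 1430, 1177 and 1236 CPM in normoxia. The short fragment His 1-18, which ends in the D loop, had 458, 227 and 314 CPM in hypoxia, and 456, 410 and 534 CPM in normoxia.

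**Figure D4:**
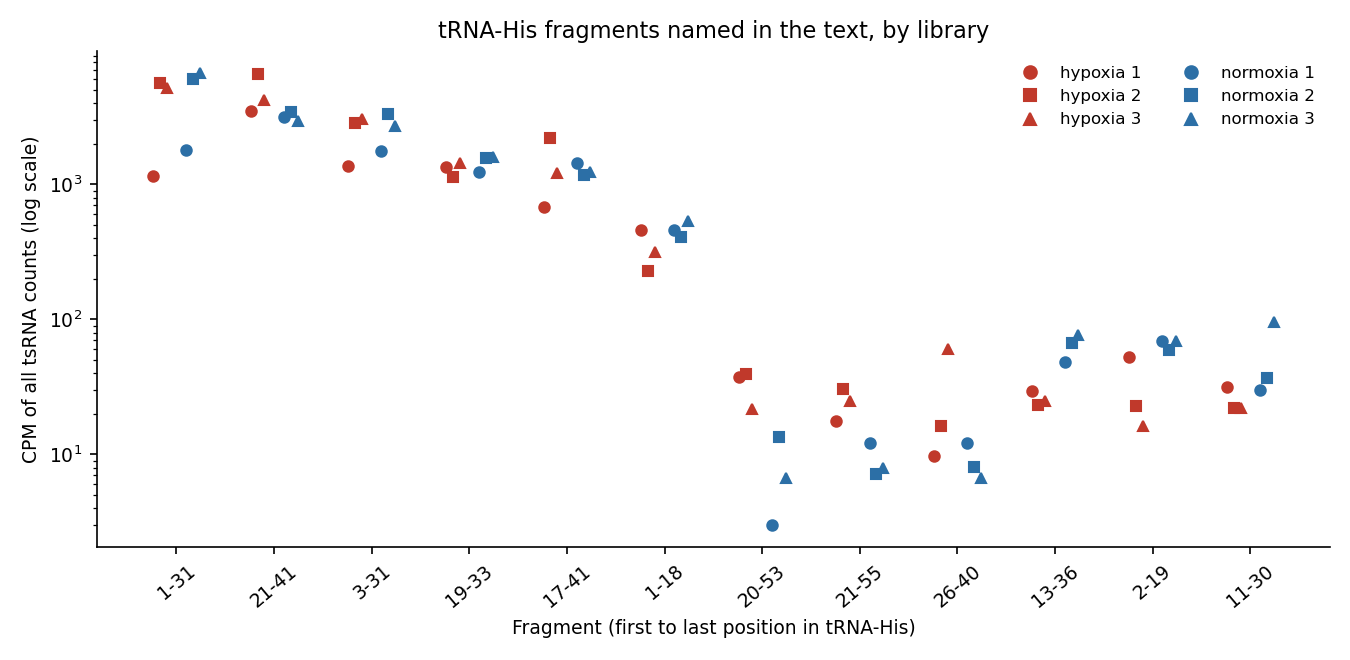
Level of each named fragment of the internal class (CPM, log scale, y axis) in each library, hypoxia in red left of normoxia in blue; fragments are named by first and last position (x axis). His 21-41 lay at 3512 to 6575 CPM in hypoxia and 2932 to 3426 CPM in normoxia, while the groups overlapped for His 1-31.

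Among sequences of at least 10 CPM, those with the smallest unadjusted p were of low abundance, and they were chosen for that p. His 20-53, from the D loop to the T loop, had 37.2, 39.4 and 21.6 CPM in hypoxia, and 3.02, 13.5 and 6.75 CPM in normoxia, where normoxia 1 rested on 1 count. Its groups did not overlap, and its log2 change was 1.83 (SE 0.80). His 21-55 had 17.6, 30.4 and 25.1 CPM in hypoxia, and 12.1, 7.21 and 7.98 CPM in normoxia, and its groups did not overlap either. His 26-40 had 9.79, 16.4 and 60.7 CPM in hypoxia, and 12.1, 8.12 and 6.75 CPM in normoxia, so that hypoxia 3 stood above the rest.

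On the lower side, His 13-36, which ends at the last base of the anticodon, had 29.4, 23.4 and 25.1 CPM in hypoxia, and 48.4, 66.7 and 76.7 CPM in normoxia. The groups did not overlap, with a log2 change of -1.39 (SE 0.63). His 2-19 had 52.9, 23.0 and 16.3 CPM in hypoxia, and 69.5, 59.5 and 69.3 CPM in normoxia, again without overlap. His 11-30 had 31.3, 22.2 and 22.2 CPM in hypoxia, and 30.2, 37 and 95.7 CPM in normoxia, which overlapped.

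The 115 sequences that did not match the encoded tRNA exactly, with 321 counts, each carried at least 1 of 5 substitutions, written with the base of the sequence above first, its position, then the base of the fragment. G31A was found in 62 sequences, C39T in 31, T16G in 24, T5A in 19 and A67T in 16. Positions 5 and 67 pair in the acceptor stem, and positions 31 and 39 close the anticodon loop, so T5A with A67T and G31A with C39T keep both pairs. All 26 sequences that span positions 31 and 39 and carry either change carried both, and all 9 that span positions 5 and 31 and carry T5A or G31A carried both. T16G was never found with another substitution. All 3 sequences of the CCA end class carried A67T, so none of its 19 counts came from the encoded sequence shown above.

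The other tRNAs that can hold queuosine are given for comparison, with the 4 mitochondrial families of the same anticodons. Of these 8 families, 0 passed an adjusted p of 0.05 by edgeR, where the background was 0%. Without adjustment there was 1, mitochondrial tRNA-Asp, which was lower in hypoxia, against 2.74% of all families. The log2 change was 0.00 (SE 0.30) for tRNA-Asn-GTT, 0.30 (SE 0.42) for tRNA-Asp-GTC and -0.14 (SE 0.45) for tRNA-Tyr-GTA. Among the mitochondrial families it was -0.39 (SE 0.43) for tRNA-His, -0.05 (SE 0.26) for tRNA-Asn, -0.65 (SE 0.22) for tRNA-Asp and -0.69 (SE 0.57) for tRNA-Tyr. Single libraries moved some of these: mitochondrial tRNA-His had -0.86 without hypoxia 1 and -0.12 without normoxia 1, and mitochondrial tRNA-Tyr had -1.10 without normoxia 1 and -0.26 without normoxia 3. DESeq2 called mitochondrial tRNA-Asp lower in hypoxia (2.74% of all families passed).

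The 5 families whose scaled levels over the 6 libraries were most like those of tRNA-His, by root mean square difference of centred log2 values, were tRNA-Val-CAC (0.11), tRNA-Val-AAC (0.12), tRNA-Ser-TGA (0.13), tRNA-Ser-AGA (0.15) and tRNA-Tyr-GTA (0.16). In each of them, as in tRNA-His, both libraries numbered 1 were the lowest on the scaled level.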

How the data were processed

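The authors deposited 1 table of raw counts per tsRNA sequence and library, in 6 libraries; the genome build was mm10, per the submitters' processing notes. For the aligner, tRNA reference, length limits and mismatches allowed: not given in the sources used here. Sequences were 15 to 45 nt long. The members, lists, position groups and tests were chosen with earlier results of these data known. Counts were summed by family and by class. Each level was fitted over the whole table with edgeR 4.0.16 (TMM, filterByExpr, quasi-likelihood test, Benjamini-Hochberg adjustment) in R 4.3.3; DESeq2 1.42.0 and limma 3.58.1 were alternatives. The edgeR step was tested on simulated data, all with less spread between libraries than here (common dispersion 0.706 in the main sequence-level fit). That check does not show which changes the fit could find in these data. Exact permutation tests, two-sided, were used for shares. Fragments were placed without mismatches on a tRNA sequence assembled from the fragments by 14-base overlaps.

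The library totals limit precision: 330787 to 2563749 counts. PCR reads have no molecular identifiers here, so limits cover counting error only. Same-numbered libraries deviated together from their group means (correlations of 0.81, 0.53 and 0.45 over 6452 tsRNAs for numbers 1, 2 and 3). These values cannot show a pairing. The deviations in a group sum to 0, so the split of the libraries numbered 1 can by itself make numbers 2 and 3 deviate together. Libraries of different numbers were not compared, and the labels name no pairing. Pairing by number is thus an assumption, and a fit with the replicate number as a block was the alternative. Named sequences were the 5 most abundant, the 3 most abundant of each class, the 2 most abundant that start at position 1, and the 3 higher and 3 lower of smallest unadjusted p at a mean of at least 10 CPM. Names of genes come from RefSeq (GRCm38.p6); 10 matched.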

Additional observations from a re-analysis of the deposited data

How the results depend on the processing

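The planned and added settings (scaling, filter, tool, replicate block, each library left out, both libraries numbered 1 left out) gave no tRNA-His sequence past the threshold, 0 in each. A sequence-level log2 change has a wide error here, and the depth of the libraries numbered 1 limits the sequences of low abundance. The replicate block changed no call among tRNA-His results. The queuosine list had 1 family past the threshold by DESeq2 (mitochondrial tRNA-Asp, -0.47; 2.74% of all families), 2 without both libraries numbered 1 (mitochondrial tRNA-Asp, -0.69, and mitochondrial tRNA-Tyr, -0.95; 11% of all families), and 1 with the replicate block and DESeq2 or its size factors (tRNA-Asp-GTC, 0.47 in each; 6.85% and 5.48% of all families). The causes were not tested. Counting each distinct sequence with at least 10 counts once moved the difference in fragments that hold the anticodon to 2.58 points, and in those that end before it to -2.31 points. The median log2 change of all families was 0.11 with DESeq2 size factors and -0.07 with TMM; tRNA-His lay 0.12 and 0.13 above those medians.

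Leaving out each library in turn gave log2 changes of -0.19 to 0.34 for the tRNA-His family, -0.24 to 0.34 for its internal class and -1.80 to 1.96 for its 3' end class. Shares ranged from -0.278 to 0.210 points for the internal class, -0.213 to 0.279 for the 3' end class, -0.00143 to 0.00225 for the CCA end class, -8.41 to 8.50 for long fragments from position 1, -3.50 to 8.27 for the full CCA and -0.296 to 0.302 for starts in the anticodon loop. It gave -0.77 to 0.20 for His 1-31, -0.45 to 0.29 for His 3-31 and -0.42 to 0.60 for His 17-41. Among the untested position shares it gave -1.73 to 0.413 points for fragments cut inside the anticodon, -3.69 to 5.51 for those that start after it, -3.69 to 5.55 for starts in the anticodon loop or beyond and -5.26 to 7.86 for ends in the variable loop or beyond; the lowest values of the last 3 came without hypoxia 1, and the highest of the first without hypoxia 2. For families it gave -0.21 to 0.15 for tRNA-Asn-GTT, -0.084 to 0.67 for tRNA-Asp-GTC, -0.43 to 0.12 for tRNA-Tyr-GTA and -0.18 to 0.018 for mitochondrial tRNA-Asn.

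Under other settings, signs turned in the following values, none of which had passed a test. Without both libraries numbered 1 the 3' end class had -0.23 (log2), tRNA-Asn-GTT -0.095 (log2), the internal class 0.0054 points, the 3' end share -0.0059, long fragments 1.39 and starts in the loop -0.0097. With limma voom the 3' end class had -0.019, His 17-41 -0.089 and tRNA-Asn-GTT -0.0091. With the replicate block His 17-41 had -0.069, or -0.10 with DESeq2 size factors and -0.11 with DESeq2. By DESeq2 size factors, by DESeq2 and by these with the block, tRNA-Tyr-GTA had 0.018, 0.018, 0.040 and 0.040, and mitochondrial tRNA-Asn 0.12, 0.12, 0.13 and 0.13, or 0.068 by library size only. tRNA-Asn-GTT had -0.0096 with single-family sequences only. Long fragments of at least 33 nt differed by 0.551 points. Starts in the loop differed by -0.0883 with distinct sequences and by -0.00125 for positions 34 to 37. Starts from the 3' strand of the D stem to the anticodon stem differed by -0.0065 with distinct sequences.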
